A study of Nematostella vectensis with 84 samples.

Results

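The 100 steadiest well-expressed genes of the oral disc and tentacles of the adult starlet sea anemone, Nematostella vectensis, were described across 3 forms of trauma. They were chosen by their spread over 83 of the 84 libraries of the study. Reads were first scaled to a common library size (CPM), taken as each library's total without the 10 genes with most reads. Genes with a mean of at least 100 CPM were kept, and the 60 genes with the highest means were set aside. This left a pool of 1310 of the 23510 gene models, and the 100 with the lowest coefficient of variation (CV, the SD as a percentage of the mean) were taken. The other 1210 genes are called the rest of the pool. The library T2 F of the calcium-free group was not used in the choice. It is therefore the only library in which the level of these genes is independent of how they were picked. T2 F also stood apart from the other libraries over the pool as a whole, as given below. It cannot stand for a further library of the same kind, and whether it carries the right label could not be settled from these sources.

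Genes whose transcripts vary little between samples are used as references against which other genes are measured, and in animals they are commonly found among genes that every cell needs. Whether that is so here was not examined, since the table names genes only by numbered models (NVE), 0 of which matched the reference gene table, assembly jaNemVect1.1. No role is therefore given to any member, and the labelled tissue could not be checked by markers. The tentacles of sea anemones carry hair-bundle mechanoreceptors, whose bundles rest on actin filaments and extracellular linkages. Cytochalasin D blocks actin polymerisation, medium without calcium weakens adhesion that needs calcium, and streptomycin is an aminoglycoside antibiotic known to harm vertebrate hair cells.

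RNA came from animals exposed to calcium-free KSW, cytochalasin D or streptomycin, where KSW is an abbreviation with no expansion in the labels. The exposures to calcium-free KSW and to cytochalasin D were followed by hourly samples of recovery, T0 to T4. Time points T0 to T3 of streptomycin stand for lengths of exposure, each followed by the same recovery. This gave 14 groups of 6 libraries, lettered A to F, with strain and genotype not stated for any group. The sources used here give neither the exposure lengths nor whether T0 came before or after the trauma, and no untreated series was analysed here. The design text speaks of 3 replicates and 2 conditions, and no label says which libraries those would be. Nothing in the labels says that the libraries of a group came from separate animals, so SDs and p-values describe only how these libraries vary, which may be technical variation. In bulk tissue, fewer cells of a type and less RNA per cell cannot be told apart.

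Library totals ran from 194043 to 591692 reads, with a median of 312264. Over the 83 libraries, 1 read was worth 2.07 to 9.46 CPM. The 10 genes with most reads took 9.31% of the reads in T2 F, against 17.2% to 45.5% in the other 83 libraries, with a median of 30.4%. Library T2 F was also the deepest, at 591692 reads with 15687 genes detected, inside the range of 10708 to 17053 genes in the others. The 100 members together took 11.5% of all reads in T2 F and 5.68% to 9.53% in the other 83 libraries.

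The members were well expressed and spread little. Their mean levels ran from 196 to 2258 CPM, with a median of 982 CPM, and the rest of the pool had a median of 178.7 CPM. Their CV ran from 10.1% to 16.2%, with a median of 13.9%, and the rest of the pool began at 16.2% with a median of 26.7%. These values define the list and are given as a description. The highest library held 1.59 to 2.87 times the CPM of the lowest for each member, with a median of 1.99, and the ratio stayed under 2 in 52 members. The rest of the pool had a median ratio of 3.96.

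Counting error made up part of this spread. Sampling of reads alone would give the members a median CV of 7.03%, and it made up a median of 26.4% of their squared CV. The share ranged from 9.0% to 96.4%. It passed 50% in 19 members and lay under 20% in 30. After this part was taken out, the spread that remained had a median of 11.2% among the members and of 20.6% in the rest of the pool. Members were common among highly expressed genes and rare among weakly expressed ones, whose counting error is larger. At 1000 to 2500 CPM there were 48 members and 64 other pool genes. There were 32 and 98 at 500 to 1000 CPM, 19 and 367 at 200 to 500 CPM, and 1 and 681 at 100 to 200 CPM. Ranking by the CV with counting error subtracted kept only 39 of the 100, the lowest number among the settings of the choice that were tried.

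**Figure D1:**
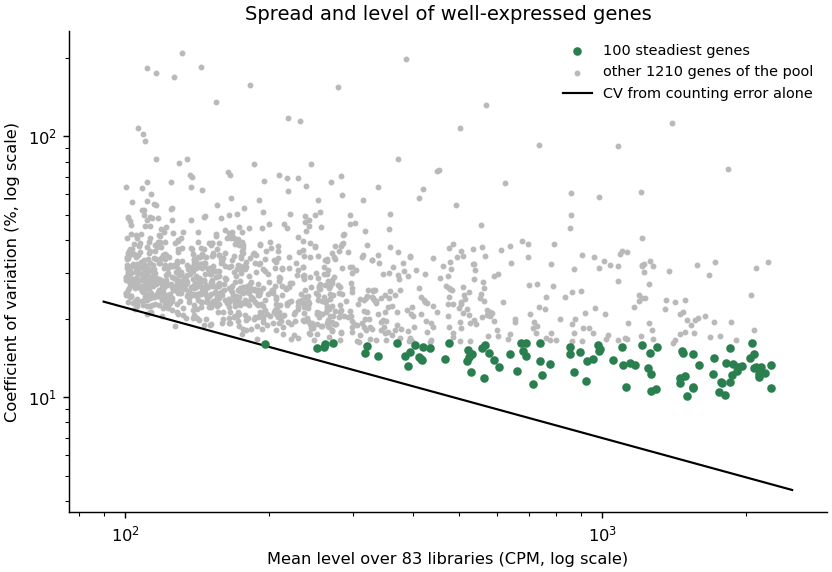
Coefficient of variation (%, log scale) over 83 libraries against mean level (CPM, log scale) for the 100 members (green) and the other 1210 genes of the pool (grey), with the CV that counting error alone would give as a line. The members lie between 10.1% and 16.2% and crowd toward the right, where counting error is small.

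The steadiest gene of all, NVE20604, had 1178 CPM in its lowest library (cytochalasin D T1 D), a median of 1499.95 CPM and 1868 CPM in its highest (streptomycin T1 B). Its mean was 1508 ± 151.9 CPM (SD, n = 83), a CV of 10.1%. The 14 group means of NVE20604 had their highest value, 1632 CPM, in streptomycin T0 and their lowest, 1385 CPM, in cytochalasin D T1, a ratio of 1.18. Its treatment means were 1522 ± 150 CPM in calcium-free KSW (n = 29), 1471 ± 131 CPM in cytochalasin D (n = 30) and 1539 ± 173.8 CPM in streptomycin (n = 24). These means differ by less than 1 SD of any treatment.

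The next 5 genes were close behind in spread and similar in level. NVE4703 averaged 1811 ± 185.1 CPM and ran from 1406 to 2393 CPM over the 83 libraries. NVE4736 averaged 1754 ± 183.2 CPM, NVE6160 1267 ± 133 CPM, NVE12356 1298 ± 139 CPM and NVE16634 1548 ± 167.2 CPM. Their CVs ran from 10.2% to 10.8%. They were not steady in the same places, however. NVE4736 was lowest in calcium-free KSW T2, at a mean of 1485 CPM, and highest in streptomycin T3, at 1971 CPM. NVE12356 was lowest in cytochalasin D T0, at 1082 CPM, and highest in calcium-free KSW T1, at 1423 CPM.

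The middle and the edge of the list show what the threshold means in reads. NVE18510, at rank 50, had a CV of 13.9% around 1053 CPM and ran from 753 to 1546 CPM. The last member, NVE21253, had a CV of 16.17% around 2062 CPM. The 2 genes just outside were NVE4702, with a CV of 16.20% around 1406 CPM, and NVE23439, with a CV of 16.22% around 308 CPM. The edge is therefore narrow, and nothing in the values separates the last gene inside from the first outside. NVE4702, just outside, and NVE4703, at rank 2, are consecutive gene models, but the numbers were not matched to positions in the genome. No 2 members were consecutive and 1 pair lay 2 numbers apart.

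At the extremes of level, the member with most reads, NVE1076, averaged 2258 ± 244 CPM, with 1726 CPM in its lowest and 2819 CPM in its highest library. The least expressed, NVE2600, averaged 196 ± 31.4 CPM, or 43.5 reads a library. For NVE2600, counting error made up 96.4% of the squared CV and left an extra spread of 3.05%, the narrowest of the 100. Its 14 group means stayed between 185.2 and 217.1 CPM. The widest extra spread, 15.4%, belonged to NVE21253.

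Between groups the members moved little, in proportion to their small spread. The highest group mean was 1.15 to 1.69 times the lowest, with a median of 1.32, against a median of 1.73 in the rest of the pool. The 14 groups held a median of 34.5% of a member's sum of squares, against 34.7% in the rest of the pool, and their share of the degrees of freedom was 15.9%. The 3 treatments alone held a median of 12.3%, against 12.4% in the rest of the pool. The 15 combinations of time point and letter pair (letters A and D, B and E, or C and F), which cut across treatments, held 24.6%, against 26.6% in the rest and a share of 17.1% of the degrees of freedom.

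The gene with the widest ratio of group means was NVE13931. It averaged 821 ± 107 CPM in streptomycin T3 (n = 6), with libraries from 710 to 995 CPM, and 485 ± 86.9 CPM in calcium-free KSW T2 (n = 5, without T2 F), with libraries from 347 to 572 CPM. These groups did not overlap, and their ratio of means was 1.69. NVE21253 came next, at 1.59. It averaged 2603 ± 414 CPM in cytochalasin D T4, with libraries from 2149 to 3120 CPM, and 1638 ± 174.9 CPM in calcium-free KSW T0, with libraries from 1366 to 1813 CPM. Both pairs are the extremes of 14 means and carry no test. Across treatments the ratio of means was at most 1.28 for any member. Cytochalasin D held the highest treatment mean of 51 members, streptomycin of 26 and calcium-free KSW of 23, whereas calcium-free KSW held the lowest mean of 61. Of the 1210 other pool genes, cytochalasin D held the highest mean of 461, streptomycin of 280 and calcium-free KSW of 469, and calcium-free KSW held the lowest of 399.

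Genes chosen in a single treatment also had low CVs in the treatments not used to choose them. When the same rule was applied to the libraries of calcium-free KSW alone, the 100 genes it chose had a median CV of 13.5% in the other 2 treatments and 12.8% in calcium-free KSW itself. The rest of that pool had a median of 26.4% in the same libraries. Genes chosen in cytochalasin D alone had a median CV of 14.2% elsewhere, against 27.3% for the rest, and genes chosen in streptomycin alone 14.3%, against 25.4%. Of the 100 genes chosen in each treatment, 2, 0 and 0 lay above the pool's median elsewhere, in the order calcium-free KSW, cytochalasin D and streptomycin. The lists chosen in these treatments shared 67, 74 and 76 genes with the members. Level enters these CVs through counting error, and the chosen genes were not matched to the rest for level. Over the 83 libraries, counting error alone gave the 1210 genes of the rest of the pool a median CV of 16.5%. Same-letter libraries of different treatments also vary together at most time points, so the treatments are not independent of each other. The contrast with the rest therefore does not show steadiness apart from level. The members themselves had median CVs of 13.1% within calcium-free KSW, 11.9% within cytochalasin D and 12.6% within streptomycin, against 24.7%, 23.8% and 26.0% in the rest of the pool.

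In library T2 F of calcium-free KSW, which took no part in the choice, most members left the range that the other 83 libraries had set. T2 F lay outside that range for 79 of the 100 members, above it for 38 and below it for 41. In the rest of the pool it lay outside for 63.8% of the 1210 genes, above for 20.4% and below for 43.4%. The choice made the members' ranges narrow, with a median ratio of highest to lowest library of 1.99 against 3.96 in the rest, so an equal shift leaves a member's range more easily, and nothing is read from these shares. T2 F is 1 library, so no test is possible. The other 83 libraries were each the lowest or highest for 0 to 16 members, with a median of 1, which the choice itself limits. The most extreme of them were streptomycin T0 D, with 16 members, and calcium-free KSW T0 A, cytochalasin D T2 B and cytochalasin D T4 D, with 11 each.

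The size of the shift was far beyond the members' usual spread. T2 F held 0.0659 to 2.40 times a member's mean over the other libraries. It held over 1.5 times the mean for 25 of the 100 members, against 296 of the 1210 other pool genes. It held under 0.5 times the mean for 38 members, against 599 others, and under 0.25 times for 16 members, against 339 others. Level went with direction. Of the 48 members at 1000 CPM or more, T2 F exceeded the mean for 36, against 35 of the 64 other pool genes at that level. At 500 to 1000 CPM it exceeded the mean for 12 of 32 members, against 46 of 98 others, and at 200 to 500 CPM for 3 of 19, against 110 of 367. The balance of both directions depended on the scaling. T2 F lay above the range for 49 members and below it for 38 with full totals, 44 and 40 with TMM, and 52 and 34 with median-of-ratios, so that 84 to 87 of the 100 were outside, and 62.7% to 64.3% of the whole pool. The low share of the 10 most read genes in T2 F, given above, moves with this result, and its part in it was not tested.

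The members with the lowest CVs were among those that moved in T2 F under the rule's scaling. NVE20604, the member with the lowest CV, had 859 CPM in T2 F, against 1333 to 1614 CPM in the other 5 libraries of its group. That was 0.57 times its mean over the 83 libraries. NVE12356 had 278 CPM in T2 F, against a mean of 1298 CPM, and NVE4703 had 2631 CPM, against 1811 CPM. Of the 6 steadiest genes, 4 were below the range of the other libraries, NVE4703 was above it and NVE4736, at 2115 CPM, was inside it.

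The largest shifts were all losses. NVE444 had 72.7 CPM in T2 F (39 reads), against a mean of 1103 CPM and a range of 746 to 1461 CPM in the other 83 libraries. That level was 15.2 times lower than the mean. NVE23664 had 89.4 CPM, against a mean of 1102 CPM, and NVE23285 had 113.7 CPM, against 896 CPM. NVE23916 had 42.9 CPM (23 reads), against 372 CPM. The largest of these losses was in a gene with a CV of 13.2% over the other libraries, at rank 38.

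**Figure D2:**
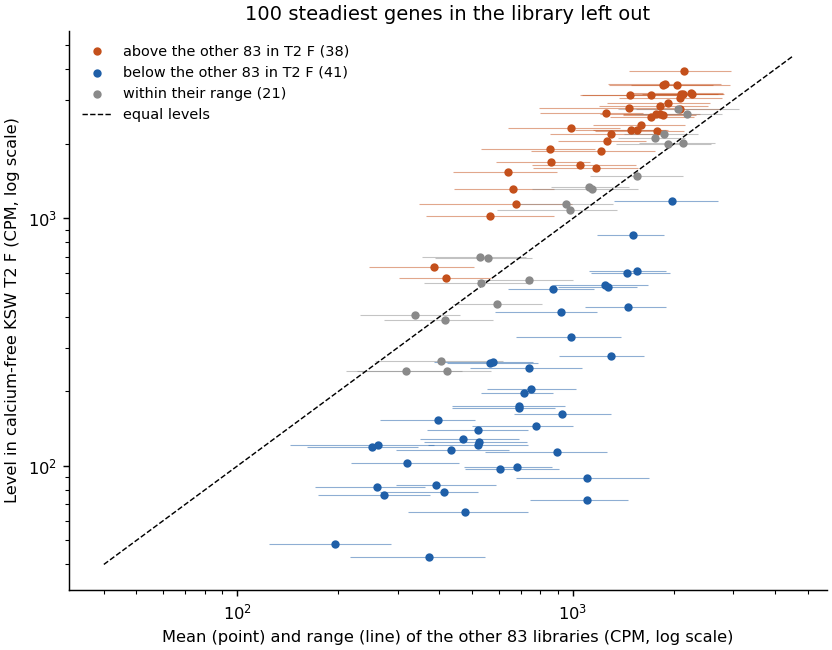
Level of each member in calcium-free KSW T2 F (CPM, log scale) against its mean (point) and range (line) in the other 83 libraries (CPM, log scale), coloured by whether T2 F lay above (38), below (41) or within (21) that range. Genes above the range gather at high levels, and the losses reach 15.2-fold at NVE444.

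The members fell into 3 sets by their position in T2 F under the rule's scaling, called the above, below and within sets. With the other 3 scalings T2 F stayed above the range for all 38 genes of the above set and below it for 34 to 40 of the 41 genes of the below set. These sets were named after the values were seen, from a library that the values given next do not use. The above set had a median level of 1574 CPM, the below set of 691 CPM and the within set of 956 CPM. Median CVs, which the choice confines, were 13.5%, 14.2% and 14.0%, in the same order. Counting error made up a median of 18.7% of the squared CV in the above set, 39.6% in the below set and 34.4% in the within set.

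Within the other 83 libraries the above set moved together. The mean correlation of log2(CPM + 1) over its 703 pairs of genes was 0.51, and 82.9% of the pairs had a correlation above 0.3. The below set had a mean correlation of 0.13, the within set of 0.06 and the rest of the pool of 0.02. These sets were not matched for level or for counting error, which weakens correlations and was smallest in the above set. Pairs of an above with a below gene had a mean of −0.11. On deviations from the group means these values were 0.41 for the above set, 0.16 for the below set, 0.03 for the within set and −0.11 across above and below genes, so the common movement was not only a difference between groups. The points share library depth and the scaling total. The mean across above and below genes changed sign with the scaling, to 0.17 with TMM, 0.09 with median-of-ratios and 0.21 with full totals. The above set stayed at 0.64 to 0.68 under the same scalings. With full totals the other means were also higher, at 0.35 in the below set, 0.25 in the within set and 0.14 in the rest of the pool.

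**Figure D3:**
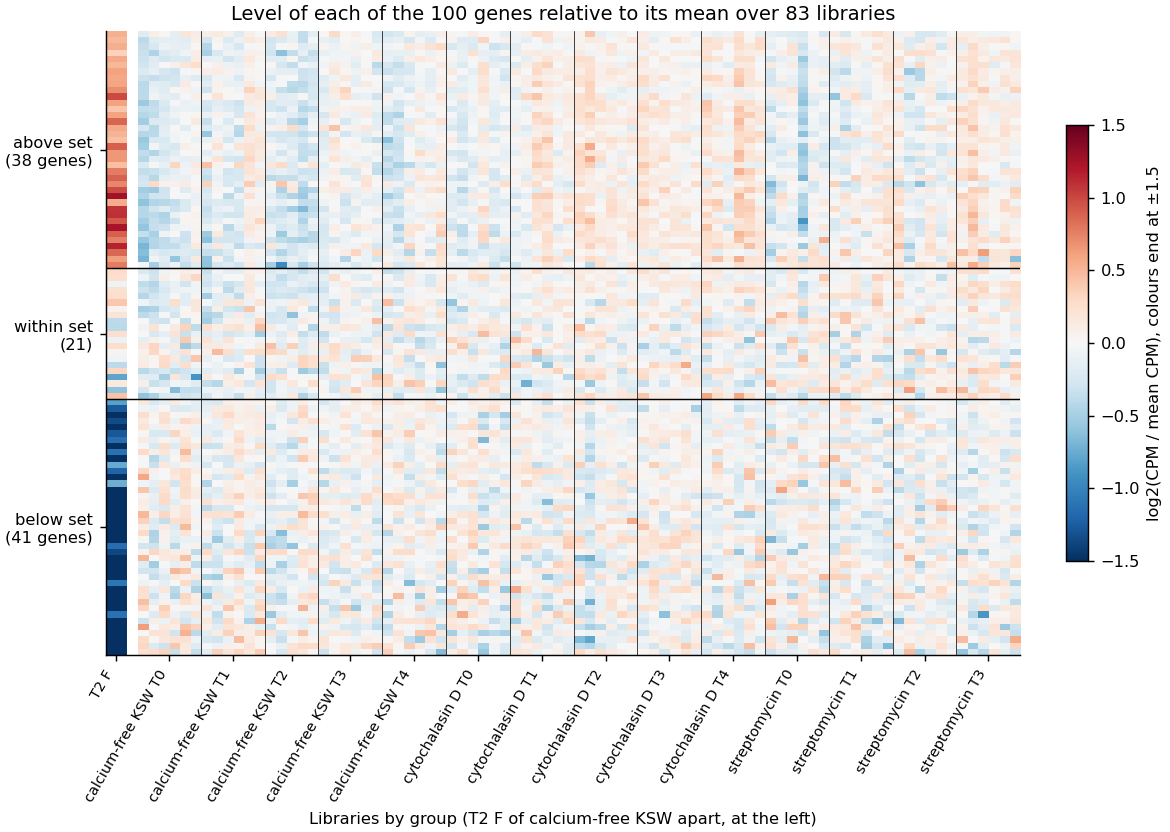
Level of each member relative to its mean over 83 libraries, as log2(CPM / mean CPM) in colour, with genes in rows by set and libraries in columns by group, T2 F of calcium-free KSW apart at the left. The above set is bluer in many calcium-free libraries and redder in cytochalasin D, while the below set shows its strong colours in T2 F.

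The above set differed between treatments on a small scale. Its summed level had a mean of 59198 ± 4724 CPM in cytochalasin D (SD, n = 30), 56746 ± 5250 CPM in streptomycin (n = 24) and 52309 ± 4729 CPM in calcium-free KSW (n = 29). The mean of cytochalasin D was 1.13 times that of calcium-free KSW, and 1.16 to 1.21 times with the other scalings. The mean of streptomycin was 1.08 times that of calcium-free KSW, but 0.989 times with full totals, 1.13 with TMM and 1.16 with median-of-ratios. The libraries behind these SDs are not all independent, since same-letter libraries of different treatments vary together at most time points. Cytochalasin D gave the highest treatment mean for 31 of its 38 genes, and calcium-free KSW the lowest for 33. The ranges overlapped, at 49309 to 70135 CPM in cytochalasin D and 42434 to 61136 CPM in calcium-free KSW. Each sample title ends in a running number, called the sheet number here. In a low range these numbers alternate between groups, and in a high range they run group by group. All libraries of calcium-free KSW lie in the low range and all of cytochalasin D in the high range, so these treatments and any batch that the numbers may mark cannot be told apart. The rule applied to either range alone kept 81 (low) or 78 (high) of the 100 members.

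The summed level of the above set was higher at the end of each course than at its T0. In cytochalasin D it was 63128 ± 4596 CPM at T4, with libraries from 56631 to 70135 CPM, against 53476 ± 3690 CPM at T0, with libraries from 49309 to 60187 CPM. All 6 libraries of T4 exceeded the T0 median, although the ranges overlapped, and the ratio of means was 1.18. In streptomycin it was 61509 ± 3627 CPM at T3, with libraries from 57070 to 67893 CPM, against 52151 ± 5243 CPM at T0, with libraries from 42348 to 55640 CPM. Those groups did not overlap under the rule's scaling, and the ratio was also 1.18. All streptomycin libraries of T3 lie in the high range of sheet numbers and all of T0 in the low range. In T2, which holds both, the summed above set was 55907 ± 3784 CPM in the high range (n = 4) and 56420 ± 7760 CPM in the low range (n = 2). In calcium-free KSW it was 53882 ± 4949 CPM at T4, against 49825 ± 5271 CPM at T0, a ratio of 1.08, and 4 of 6 libraries of T4 exceeded the T0 median. Under the other scalings the ratio was 1.18 to 1.23 in cytochalasin D, 1.17 to 1.28 in streptomycin and 1.02 to 1.17 in calcium-free KSW. With median-of-ratios 5 of 6 libraries of streptomycin T3 exceeded the T0 median, so those groups overlapped there. In calcium-free KSW, 6 of 6 libraries of T4 exceeded it with TMM and with median-of-ratios, and 4 of 6 with full totals.

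The middle time points gave no even course. In cytochalasin D the summed above set had means of 53476, 58701, 61159, 59526 and 63128 CPM from T0 to T4. In streptomycin the means were 52151, 57245, 56078 and 61509 CPM from T0 to T3. In calcium-free KSW they were 49825, 53945, 48563 (5 libraries, without T2 F), 54706 and 53882 CPM. The SDs of these groups lay between 2141 and 5360 CPM.

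The below set was a little lower at the last time point under the rule's scaling. Its summed level was 30592 ± 1569 CPM at T4 and 31628 ± 1859 CPM at T0 in cytochalasin D, a ratio of 0.967, and 2 of 6 libraries of T4 exceeded the T0 median. It was 30463 ± 988 CPM at T3 and 32001 ± 297 CPM at T0 in streptomycin, a ratio of 0.952, and 0 of 6 libraries of T3 exceeded the T0 median. It was 31810 ± 1130 CPM at T4 and 32519 ± 2558 CPM at T0 in calcium-free KSW, a ratio of 0.978, with 2 of 6. The direction depends on the scaling. In the same order, the ratios were 1.01, 1.00 and 1.06 with TMM, 0.966, 1.03 and 0.922 with full totals, and 0.994, 0.945 and 1.05 with median-of-ratios. In T2 F the summed below set was 10207 CPM, against 25947 to 35685 CPM in the other 83 libraries.

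**Figure D4:**
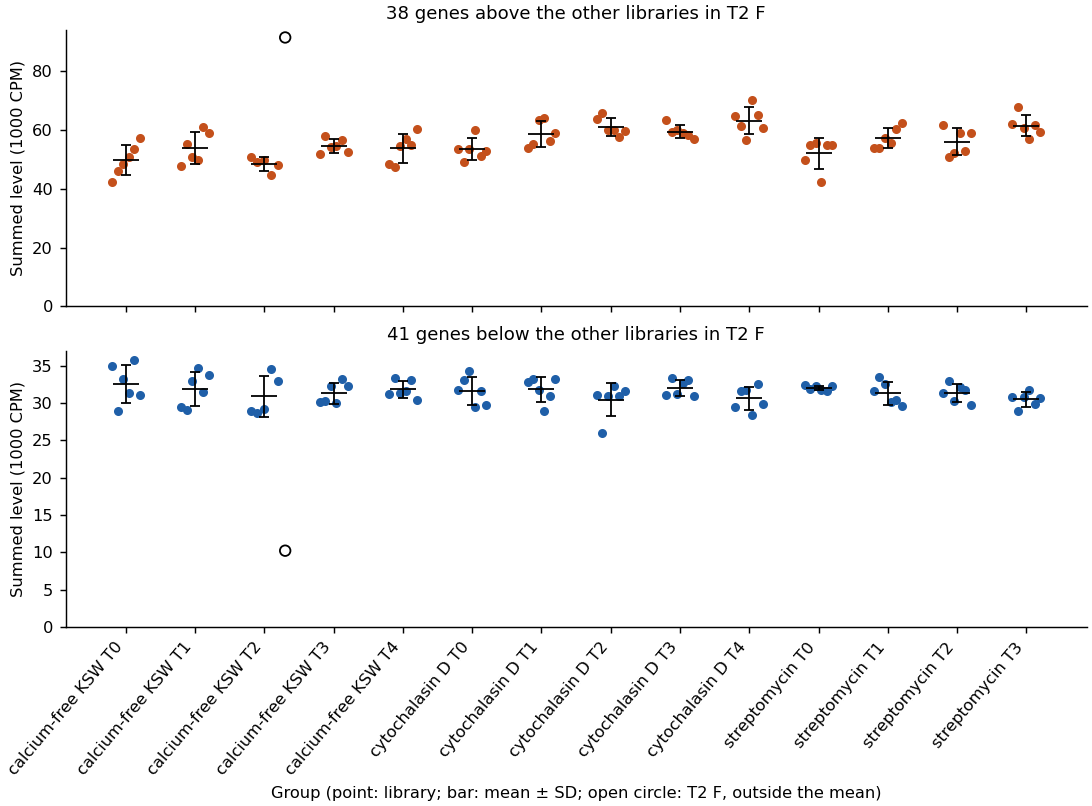
Summed level (in units of 1000 CPM) of the 38 above-set and the 41 below-set genes in each library by group, with mean ± SD as bars and T2 F of calcium-free KSW as an open circle outside the mean. The above set ends higher than it starts in each treatment, while the below set, at 10207 CPM in T2 F, stays between 25947 and 35685 CPM in the other libraries.

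Gene by gene, tests of change used edgeR's quasi-likelihood F test across all tested genes, and p-values adjusted by Benjamini-Hochberg were held against 0.05. The list was chosen from most of the same libraries, so its counts are a description beside the share over all genes. In cytochalasin D, 24 of the 100 members rose at T4 against T0 and 0 fell. Over the 4534 genes tested 9.90% were called, and 5.56% were called higher. Members were chosen for small spread and most are highly expressed, so a small change is called more easily in them than in most genes tested. The members' log2 fold changes ran from −0.25 to 0.52, with a median of 0.13, against a median of 0.01 over all genes tested. Of the 24, 19 belonged to the above set, 2 to the below set and 3 to the within set. The median log2 fold change was 0.30 in the above set, 0.00 in the below set and 0.07 in the within set, with median SEs of 0.10, 0.12 and 0.11. The count was not stable. It was 10 without letter A, 12 without B, 7 without E and 7 with no filter on low counts. Summing letter pairs gave 5, a fit of all 84 libraries gave 5, and DESeq2 called 24. The number of all genes called changed as well, from 449 of 4534 in the main fit. It was 278 of 4588 without A, 409 of 4368 without B, 225 of 4601 without E and 432 of 22600 with no filter. It was 213 of 7329 with pairs summed, 245 of 5132 in the fit of all libraries and 413 of 4534 with DESeq2.

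The lowest adjusted p among these 24 belonged to NVE11279, at rank 9 of the list. It had 1552, 1793 and 1882 CPM in its lowest, median and highest library of cytochalasin D T4, against 1250, 1326 and 1488 CPM at T0. No library of T4 fell within the T0 range. Its log2 fold change was 0.45 ± 0.08 (SE), with an adjusted p of 0.000676 by edgeR's quasi-likelihood test. NVE11279 was called under all 12 other settings, with an adjusted p of up to 0.0396, as were 3 further members. NVE15323 had 943, 996 and 1155 CPM at T4, against 670, 753 and 821 CPM at T0, again with no overlap. Its log2 fold change was 0.50 ± 0.09, with an adjusted p of 0.000763 by edgeR, and it was called in 11 of 12 other settings, with an adjusted p of up to 0.0806.

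In streptomycin, 2 members rose at T3 against T0 and 0 fell, where 5.97% of the 2862 genes tested were called and 3.11% were called higher. NVE3732 had 1834, 2014 and 2104 CPM in its lowest, median and highest library at T3, against 1205, 1612 and 1674 CPM at T0, so the groups did not overlap. Its log2 fold change was 0.37 ± 0.11 (SE), with an adjusted p of 0.0384 by edgeR. NVE21253 had 2159, 2312 and 2611 CPM at T3, against 1546, 1843 and 1917 CPM at T0, also without overlap. Its log2 fold change was 0.40 ± 0.12, with an adjusted p of 0.0386 by edgeR. Both calls were fragile, being made in 3 of 13 other settings, with an adjusted p of up to 0.406 for NVE3732 and 0.505 for NVE21253. At an unadjusted p under 0.05, 26 members passed, and DESeq2 called 5. Leaving out any letter gave 0 or 1 call, where 70 to 134 of all genes tested were called. A term for the range of sheet numbers, which differs between T3 and T0, gave 0 members and 6 of the 2862 genes. Only T2 holds both ranges, with 4 and 2 libraries, so the term rests on that group alone. With it the log2 fold changes were larger, at 0.57 for NVE3732 and 0.50 for NVE21253. The lost calls therefore do not show that the differences went away.

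In calcium-free KSW, edgeR called 0 of the 100 members at T4 against T0, where 1.06% of the 4336 genes tested were called. At an unadjusted p under 0.05 by edgeR, 10 members passed, against 664 of the 4336 genes tested. DESeq2 called 0 members, against 54 of the 4336 genes. Without T2 F, edgeR called 5 members, all higher, where 7.29% of the 4473 genes tested were called and 4.56% were called higher. In the fit with T2 F, the members' median log2 fold change was 0.19, against −0.02 over all genes tested, and 76 of the 100 were positive. Without T2 F the median was 0.20 and 78 were positive. There 33 members passed at an unadjusted p under 0.05 by edgeR, against 1015 of the 4473 genes tested. A 0 here does not show that the members did not change. With T2 F in the fit, their 95% intervals lay within ±0.5 on the log2 scale for only 33 of the 100, and the farthest bound was 0.99. The numbers were 73 in cytochalasin D and 75 in streptomycin, with farthest bounds of 0.75 and 0.64. Intervals without T2 F were not computed.

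**Figure D5:**
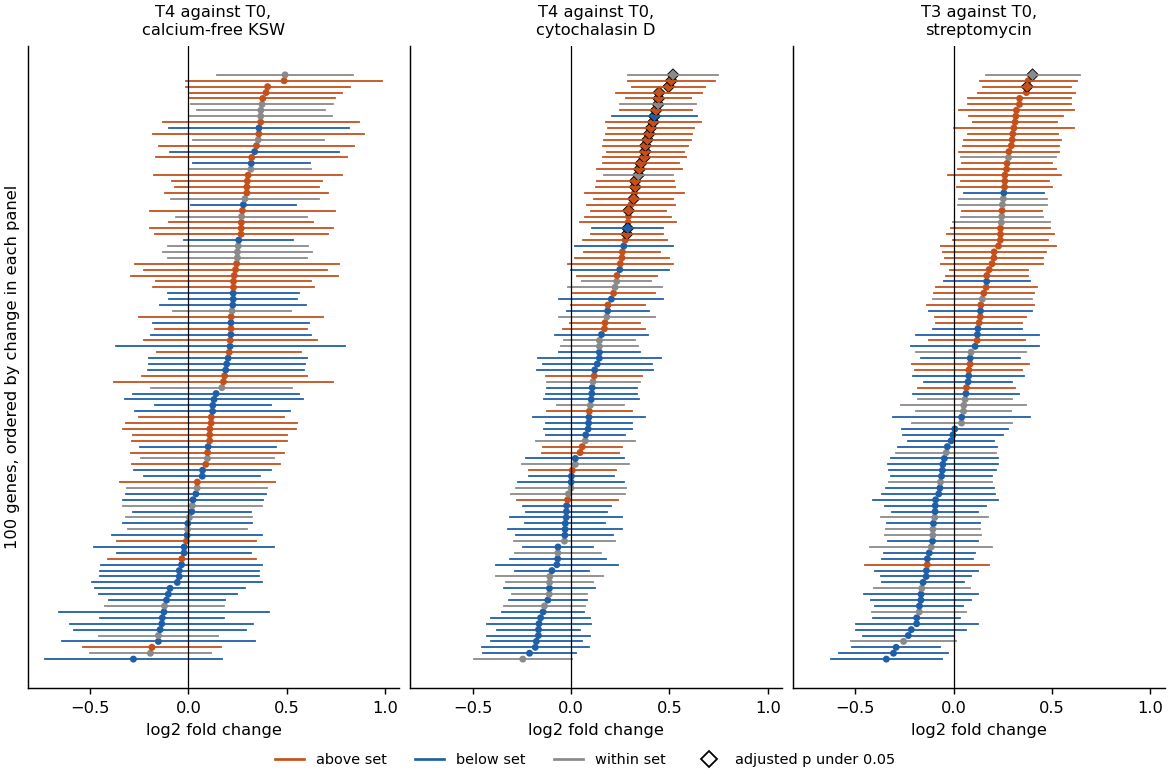
Log2 fold change (point) with 95% interval (line) of each member at the last time point against T0 in the 3 treatments, from edgeR, coloured by set, with diamonds for an adjusted p under 0.05. Diamonds mark 0 members in calcium-free KSW, 24 in cytochalasin D, mostly of the above set, and 2 in streptomycin. Intervals are widest in calcium-free KSW, where the fit includes T2 F.

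Tests over all later time points gave fewer calls in cytochalasin D and streptomycin. In cytochalasin D, 8 members were called by edgeR, all with a higher mean over the later time points, where 7.76% of all genes tested were called and 3.68% had a higher mean. These changes, as mean log2 values, ran from 0.02 to 0.38. The lowest of them ran from −0.01 to 0.07 over the other settings, so its direction is not settled. Without letter B, 1 of the 4 called members had a lower mean. NVE11279 and NVE15323 led these 8, each with an adjusted p of 0.00534 by edgeR and mean log2 changes of 0.28 and 0.36. The count was 1 without letter E or F, 2 without A and 4 without B or C, and 0 with letter pairs summed, with no filter or in the fit of all libraries. In calcium-free KSW, edgeR called 0 members, where 0.669% of all genes were called. At an unadjusted p under 0.05 also 0 passed, and DESeq2 called 0. Without T2 F, edgeR again called 0 members, where 3.31% of the 4473 genes tested were called. At an unadjusted p under 0.05 by edgeR, 22 members passed there, against 857 of the 4473 genes. In streptomycin, edgeR called 0, where 3.18% of all genes were called. At an unadjusted p under 0.05 by edgeR, 14 members passed, against 549 of the 2862 genes tested. DESeq2 called 2 members, against 141 of the 2862 genes.

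The treatments were also compared at T0. Here edgeR called 2 members, where 3.06% of the 5132 genes tested were called. NVE20089 averaged 671 ± 84.6 CPM at T0 of calcium-free KSW, 720 ± 87.1 CPM at T0 of cytochalasin D and 881 ± 66.5 CPM at T0 of streptomycin (SD, n = 6 each), with an adjusted p of 0.0151 by edgeR. The streptomycin libraries of NVE20089, at 809 to 975 CPM, lay above those of calcium-free KSW, at 577 to 758 CPM, and met those of cytochalasin D, at 603 to 835 CPM. NVE6383 averaged 335 ± 52.5 CPM in calcium-free KSW, 427 ± 54.5 CPM in cytochalasin D and 432 ± 63.8 CPM in streptomycin at T0, with an adjusted p of 0.0278 by edgeR, and its 3 groups overlapped. Both belonged to the within set. Leaving out T2 F gave 6 calls, where 5.39% of the 5273 genes tested were called. Without letter A, B, C or E the count was 0, without D it was 1 and without F it was 5. Of all genes tested, 41 to 65 were called without A, B, C or E, 97 without D and 248 without F. A term for the range of sheet numbers, which differs between these T0 groups, also gave 0 members, and 17 of the 5132 genes. That term rests on T2 of streptomycin alone, the only group with both ranges. With it the mean log2 changes against calcium-free KSW were 0.41 for NVE20089 and 0.56 for NVE6383, against 0.34 and 0.46 without it.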

How the data were processed

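The authors deposited unscaled read counts for 23510 gene models in 84 columns, each matching the title of 1 sample. Library preparation followed a published protocol, per the labels, which sequences tags, so that long genes gain no counts over short ones. The submitters' processing notes name Bowtie2. Its role, the genome build, the counting tool and the handling of strand, duplicates and multiply mapped reads are not stated in these sources, so reads of near-identical or overlapping genes may have been split or joined. No 2 columns were identical, and the highest correlation between 2 libraries was 0.913.

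The members, the lists and the tests were chosen with earlier results of these data known. CPM, CVs and correlations (pseudocount 1) were computed with Python 3.11.15 and pandas 2.3.3. The counting CV is what Poisson sampling of a gene's reads at the libraries' depths gives. The deposited counts were tested with edgeR 4.0.16 under R 4.3.3 (TMM, filterByExpr by group, glmQLFit, glmQLFTest), with each treatment fitted on its own 6 libraries per group, and the T0 groups compared in 1 fit of all 84 libraries. Adjustment ran over all genes tested, and all 100 members passed the filter. SEs were derived from the F statistic. DESeq2 1.42.0 was an alternative. The functions were tested on simulated counts. Counting CVs cover counting error only.

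Letters were checked for pairing on deviations from group means over 2566 genes. All same-letter correlations passed 0.1 in 0 of 26 pairs of groups of the same treatment. They did in 10 of 13 pairs of groups of different treatments at the same time point, among them all 3 pairs of T0 groups, with 0.172 the lowest, so the letters pair libraries there. Genes are named by rule: ranks 1 to 6, 50 and 100, the next 2 outside, the extremes of level, of group-mean ratio and of extra spread, the 4 farthest off in T2 F, and at most 2 higher and 2 lower calls per comparison. Alternatives covered scaling, filters, the test, letters left out, pairing, batches and single libraries.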

Additional observations from a re-analysis of the deposited data

Results flagged for a closer look

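Of 70 groups and quantities looked at, 7 held a library whose gap to the nearest other library took a larger part of the group's range than Dixon's 95% limit allows. Chance alone gives this in about 1 in 20 groups. Calcium-free KSW T2 F accounted for 5 of them. There the summed level of all 100 members was 126354 CPM, against 97935 to 101702 CPM in the other 5 libraries of the group. The summed above set was 91584 CPM in T2 F, against 44783 to 50827 CPM, and the summed below set 10207 CPM, against 28631 to 34551 CPM. These sets were themselves defined by T2 F, so their place there is fixed by the definition. NVE20604 had 859 CPM in T2 F, against 1333 to 1614 CPM, and NVE13931 had 1146 CPM, against 347 to 572 CPM. These levels are under the rule's scaling alone.

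The other 2 were in cytochalasin D. The summed below set was 25947 CPM in T2 B, against 30877 to 32311 CPM in the other 5 libraries. NVE20604 had 1593 CPM in T3 C, against 1453 to 1499.95 CPM. Cytochalasin D T2 B was also among the libraries that were lowest or highest for 11 members.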

How the results depend on the processing

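Each named call had the same direction under every alternative run for it, and in 45 cases the call was lost against 57 in which it was not. Of the 100 members, the other settings of the choice kept 67 to 100, except the CV with counting error subtracted, which kept 39. Leaving out 1 letter kept 90 to 94. With the 60 genes of highest mean left in the pool the number was 73, so some of those genes had lower CVs than members. For cytochalasin D T4 the count was 5 in the fit of all libraries, 5 with letter pairs summed and 7 with no filter. The genes called there numbered 245 of 5132, 213 of 7329 and 432 of 22600. Leaving out 1 letter gave 7 to 21 members and 225 to 409 genes. For any change in cytochalasin D it was 0 under each of those 3 settings and 1 to 7 with 1 letter left out. For streptomycin T3 it was 0 in the fit of all libraries, with pairs summed, with no filter or with the sheet-number term, 5 by DESeq2 and 0 to 1 with 1 letter left out, and for any change in streptomycin 2 by DESeq2. For calcium-free KSW T4 the fit of all libraries gave 1 member and 198 genes, and leaving out T2 F gave 5 members and 326 genes. Leaving out 1 letter gave 0 to 2 members and 1 to 254 genes. For any change in calcium-free KSW the fit of all libraries gave 1 member and 543 genes. At T0 it was 0 with pairs summed, no filter or the sheet-number term, 6 without T2 F and 0 to 5 with 1 letter left out. The cause of these changes was not tested. Summing pairs and leaving out a letter also leave fewer libraries in the fit. Adding the replicate letter as a block gave 11 members for any change and 25 at T4 in cytochalasin D, 2 at T3 in streptomycin and 2 at T0, where a block by letter within the time point, added after seeing the data, gave 3, so the block moved no count by more than 1.5 times. The ratio of the summed below set was 1.06 in calcium-free KSW and 1.00 in streptomycin with TMM, and 1.03 in streptomycin with full totals, and that of the summed above set of streptomycin over calcium-free KSW was 0.989 with full totals, scalings added after seeing the data. The sheet-number term could not be fitted in calcium-free KSW or cytochalasin D, which lie in 1 range each. Elsewhere it rests on T2 of streptomycin alone. Depth limits the weakest members most: NVE2600 rests on a mean of 43.5 reads a library, and counting error makes up 96.4% of its squared CV.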

Other observations

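The above and below sets also differed in how their spread was divided. The 14 groups held a median of 46.0% of the sum of squares of an above-set gene, 24.4% of a below-set gene and 36.5% of a within-set gene. The treatments alone held medians of 20.8%, 7.16% and 19.6%, in the same order. Within groups, the median CV was 10.99% in the above set, 13.02% in the below set and 11.9% in the within set. Counting error enters all these values. It made up a median of 18.7% of the squared CV in the above set, 39.6% in the below set and 34.4% in the within set. The sets were not matched for it, so its part in these differences was not tested. In streptomycin, 37 of the 38 above-set genes had a positive log2 change at T3 against T0, with a median of 0.24, and 12 of the 41 below-set genes did, with a median of −0.08. In calcium-free KSW the numbers at T4 against T0 were 35 of 38, with a median of 0.23, and 24 of 41, with a median of 0.07. Over all genes tested the median was −0.01 in streptomycin and −0.02 in calcium-free KSW. The above-set genes moved together across libraries, so their numbers do not stand for separate changes. T3 and T0 of streptomycin also lie in different ranges of sheet numbers.

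In library streptomycin T0 D, which was lowest or highest for 16 members, the summed above set was 42348 CPM and the summed below set 31783 CPM. The first is the lowest of the 83 libraries for the above set, and the second lies inside the range of the below set.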
